A study of Mus musculus with 6 samples.

Results

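The brightest circular RNA (circRNA) probes of mouse small intestine were described across 6 microarrays. A probe was taken when its spot was well above background on all 6 arrays and its mean log2 processed signal over the 6 arrays, before any scaling between arrays, was above 10. This held for 825 of the 14236 circRNA probes (5.80%). The values that chose the probes are therefore their brightness, and that they are bright is no result. The choice used all 6 arrays alike and did not use the difference between the groups. The tissue came from 8-week-old C57BL/6 mice, 3 arrays for a sham group (numbered 1, 2 and 3) and 3 for intestinal ischaemia/reperfusion, I/R (numbered 6, 7 and 9), whose labels carry 4 h without saying what those hours count. All 6 samples shared the fixation of fresh tissue in 4% paraformaldehyde, TRIzol extraction and digestion with RNase R. The labels do not say that each array is a separate animal, so each p-value here takes the array as its unit. The p-values of limma rest on the spread among arrays within the groups, pooled over both and moderated over all tested probes. Exact permutation p-values rest on regrouping the 6 arrays. Below, values of single arrays are given in the order of these numbers.

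A circRNA forms when the spliceosome joins the end of an exon back to an earlier splice site, which closes the RNA into a ring. A ring has no free ends, so most exonucleases cannot attack it, and many circRNAs outlive the linear transcripts of their host genes. RNase R digests linear RNA from a free end and so enriches the rings before labelling. Intestinal I/R interrupts the blood supply of the gut and then restores it, and the intestinal epithelium is among the tissues most sensitive to it.

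The array files name circRNA probes by an identifier alone, so no host gene, exon, junction or probe sequence is given here, and the tissue label was not checked against marker genes. The brightness of a probe depends on its sequence and labelling as well as on the amount of RNA. A rank or a share below is thus that of a probe's signal, not of the number of RNA molecules. In whole tissue, fewer cells of a type and less RNA per cell cannot be told apart.

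The summed signal of the circRNA probes differed between the groups. It was 4583264, 5566002 and 4172247 intensity units for the sham arrays and 6497815, 7123088 and 5666065 for the I/R arrays. The I/R mean was 1.35 times the sham mean and the groups did not overlap (exact two-sided permutation p = 0.1, the smallest that 3 arrays against 3 allow). Because of this difference, the main values below are shares, each probe's signal as a percent of the summed circRNA signal of its array. A scan date set sham 1 and I/R 6 (scan set 1) apart from the other 4 arrays (scan set 2). No circRNA spot was saturated. The median local background around the bright probes was 28, 31 and 29.5 on the sham arrays and 26, 27 and 26 on the I/R arrays, so it was lower on every I/R array, and the part of these differences in the results was not tested. Sham 3 stood apart among the bright probes. Of the 823 bright probes that entered the sums, 524 had their lowest log2 share on that array. Several results that rest on it, though not all, are given without it as well.

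The bright probes held most of the signal in both groups. Their summed share was 84.8%, 81.5% and 81.2% on the sham arrays and 83.8%, 80.2% and 81.4% on the I/R arrays. The groups overlapped, averaging 82.5% ± 1.95 over the sham arrays against 81.8% ± 1.83 after I/R (SD, n = 3 each), a difference of -0.718 percentage points. The direction of this small difference turned with the background correction: it was 3.46 points with normexp and 2.57 points with the median pixel signal unsubtracted. The level of the share was lower in these settings. With normexp the means were 69.5% in sham and 73.0% after I/R, and with the unsubtracted signal 70.2% and 72.8%. The shares are sums over the 823 bright probes without a marked spot.

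The signal was less concentrated in the very brightest probes after I/R. The 10 brightest probes held 10.1%, 10.6% and 15.2% of the signal on the sham arrays and 6.87%, 7.14% and 9.0% on the I/R arrays. Every I/R array lay below every sham array, and sham 3 was the highest of the 6. The means were 11.98% ± 2.84 and 7.67% ± 1.16 (SD, n = 3 each), a difference of -4.32 points, and the difference was -2.68 points without sham 3. It was -3.22 points within scan set 1 and -4.86 points within scan set 2. The number of probes needed to reach 50% of the signal was 171, 200 and 141 on the sham arrays and 215, 247 and 206 on the I/R arrays, with means of 171 and 223 (exact two-sided permutation p = 0.1, the smallest possible). Without sham 3 the sham mean was 186 probes. The concentration in sham was known from earlier results of these data, so the p-value is no independent support for it.

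**Figure D1:**
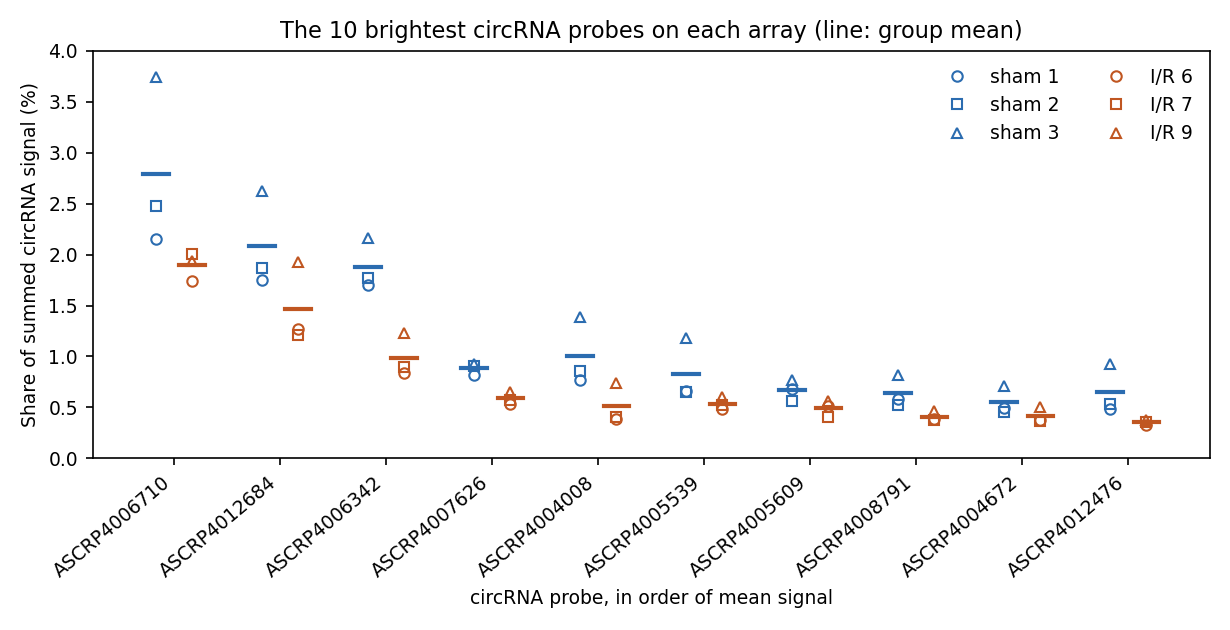
Share of the summed circRNA signal (percent) of each of the 10 brightest probes, from the brightest at the left; open symbols are single arrays, with sham in blue and I/R in orange, and short lines are the means of 3 arrays. All 10 group means were lower in I/R, and for 7 of the 10 probes every I/R array lay below every sham array.

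The same 3 probes led all 6 arrays. ASCRP4006710, ASCRP4012684 and ASCRP4006342 held ranks 1, 2 and 3 in that order on every array of both groups. Together they held 5.60%, 6.11% and 8.52% of the signal on the sham arrays and 3.84%, 4.11% and 5.09% on the I/R arrays. The difference between their means, 6.75% ± 1.56 in sham and 4.35% ± 0.659 after I/R (SD, n = 3 each), made up 55.5% of that in the 10 brightest probes, 2.40 of 4.32 points. Their order was the same throughout, while the share they held together was lower after I/R with no overlap of the groups. The 10 brightest held means of 11.98% in sham and 7.67% after I/R. The part of these 3 probes in that difference was thus close to their part of the 10 probes' signal in either group.

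The brightest probe, ASCRP4006710, held 2.16%, 2.47% and 3.74% of the signal on the sham arrays and 1.74%, 2.0% and 1.93% on the I/R arrays. All I/R values lay below all sham values, and sham 3 was far above the other sham arrays. The log2 share differed by -0.52 (SE 0.28, 95% interval -1.18 to 0.13; limma, adjusted p = 0.632 over 9492 probes), so the difference did not pass the test. Without sham 3 the log2 difference was -0.29. Over all arrays ASCRP4006710 was the probe whose mean share in percent differed most, by 0.897 points.

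ASCRP4012684 held 1.75%, 1.87% and 2.62% on the sham arrays and 1.27%, 1.21% and 1.93% on the I/R arrays. Here the groups overlapped, because I/R 9 was above sham 1 and sham 2. Its log2 share differed by -0.51 (limma, adjusted p = 0.655).

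ASCRP4006342 had the largest difference of the 3 in log2 share, though not in percentage points. Its share was 1.70%, 1.77% and 2.16% on the sham arrays and 0.835%, 0.899% and 1.23% on the I/R arrays. The means were 1.87% ± 0.248 and 0.988% ± 0.212 (SD, n = 3 each). The log2 share differed by -0.94 (SE 0.26, 95% interval -1.54 to -0.33), which had an unadjusted p of 0.00799 and did not pass after adjustment over all tested probes (limma, adjusted p = 0.546).

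The other 7 of the 10 brightest were also lower in mean share after I/R. ASCRP4004008 held 0.768%, 0.856% and 1.39% on the sham arrays and 0.391%, 0.410% and 0.738% on the I/R arrays, a log2 difference of -0.98 (limma, adjusted p = 0.600). It had the largest log2 difference among the 10, and its groups did not overlap. ASCRP4012476 held 0.484%, 0.535% and 0.928% on the sham arrays and 0.327%, 0.360% and 0.376% on the I/R arrays, a difference of -0.81. ASCRP4007626 was the tightest of the 10 within the groups, with 0.821%, 0.908% and 0.924% against 0.537%, 0.575% and 0.652%, a difference of -0.59 (limma, adjusted p = 0.600). For ASCRP4005539, ASCRP4008791, ASCRP4005609 and ASCRP4004672 the log2 differences were -0.58, -0.63, -0.44 and -0.39. The groups of ASCRP4005609 met, with 0.562% on both sham 2 and I/R 9, and those of ASCRP4004672 overlapped. Without sham 3 the log2 differences of these 7 probes ran from -0.72 to -0.20, each smaller in size. None of the 10 passed the limma test after adjustment.

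The lower shares came with signals that differed less before scaling. The 10 brightest probes summed to 462577, 590558 and 636038 intensity units on the sham arrays and to 446370, 508300 and 509666 on the I/R arrays. These groups overlapped, and the I/R mean was 0.867 times the sham mean. ASCRP4005609 averaged 31544 units over the sham arrays and 31493 units after I/R, and the I/R mean of ASCRP4004672 was 1.02 times its sham mean. The unscaled means of ASCRP4006342 and ASCRP4004008, in contrast, were 0.706 and 0.684 times those of sham. ASCRP4006342 was also the clearest case before scaling, since its 54275, 64049 and 69738 units on the I/R arrays lay below its 77810, 98342 and 90047 units on the sham arrays.

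The other 813 bright probes summed to 3421838, 3945866 and 2753881 units on the sham arrays and to 4996728, 5201114 and 4104133 units on the I/R arrays. Every I/R array lay above every sham array, and the I/R mean was 1.41 times the sham mean. As shares these probes held 74.7%, 70.9% and 66.0% of the signal on the sham arrays and 76.9%, 73.0% and 72.4% on the I/R arrays. Shares of one array add up to 100%, so a lower share of some probes goes with a higher share of others whichever of them changed. The arrays alone do not tell which scale is right.

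The pair of arrays closest in summed signal, sham 2 and I/R 9, gave a smaller difference of the same sign. The 10 brightest probes held 10.6% on sham 2 and 9.0% on I/R 9, and 7 of the 10 were lower on I/R 9. The 823 bright probes in the sums together held 81.5% and 81.4%.

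The 823 probes were ordered by their mean brightness and parted into 7 bands. In the 4 bands that span ranks 1 to 100 the mean share was lower after I/R, and in the 3 bands that span ranks 101 to 823 it was higher. Ranks 11 to 25 held a mean of 6.15% ± 0.440 in sham against 5.0% ± 0.341 after I/R (SD, n = 3 each), and the groups did not overlap. Ranks 26 to 50 held 7.83% and 6.84%, and ranks 51 to 100 held 12.1% and 11.2%, with overlapping groups. Past rank 100 the sign turned. Ranks 101 to 200 held 15.3% ± 1.08 in sham and 16.3% ± 0.665 in I/R. Ranks 201 to 400 held 17.4%, 16.9% and 13.0% on the sham arrays and 20.1%, 19.3% and 17.5% on the I/R arrays, so that every I/R array lay above every sham array. Ranks 401 to 823 held 13.4% ± 1.41 and 15.8% ± 1.04. In this band and in that of ranks 101 to 200 the groups overlapped.

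**Figure D2:**
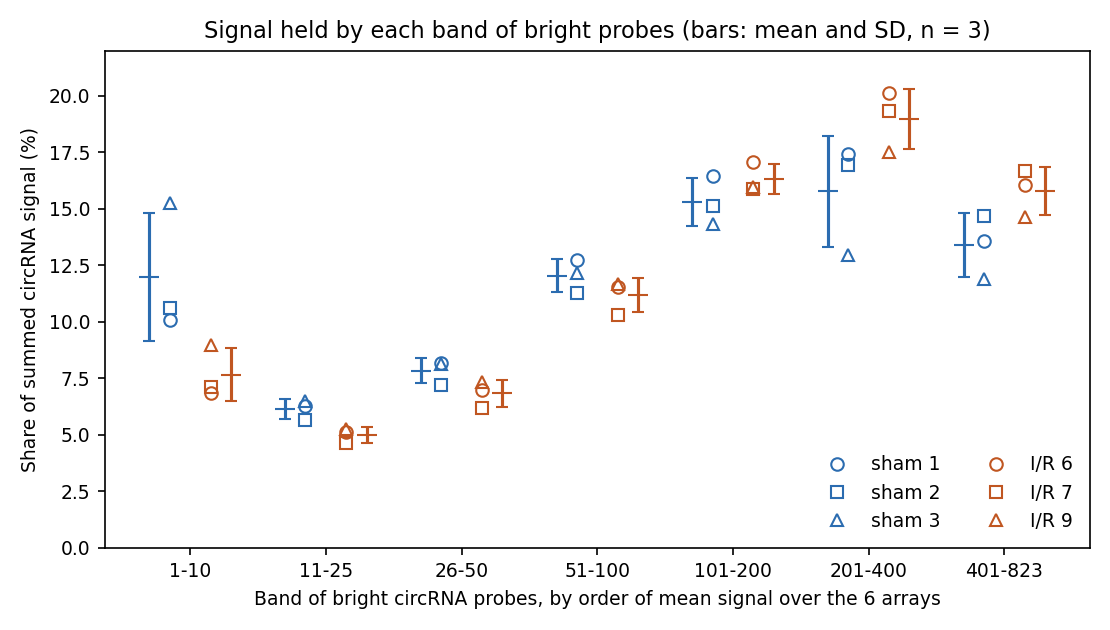
Share of the summed circRNA signal (percent) held by each of 7 bands of the bright probes, ranked by mean brightness; open symbols are single arrays, with sham in blue and I/R in orange, and bars give the mean and SD of 3 arrays. In mean share I/R lay lower in the bands up to rank 100, with -4.32 points for ranks 1 to 10, and higher from rank 101 on, with 3.21 points for ranks 201 to 400. The groups were apart only for ranks 1 to 10, 11 to 25 and 201 to 400.

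The median log2 difference in share went with the band. It was -0.58 for ranks 1 to 10, -0.10 for ranks 11 to 25, -0.14 for ranks 26 to 50 and -0.08 for ranks 51 to 100. It was 0.13, 0.32 and 0.28 for the next 3 bands. Without sham 3 the medians of the 7 bands were -0.39, -0.18, -0.11, -0.09, 0.03, 0.15 and 0.11, with the same signs. Those of ranks 11 to 25 and 51 to 100 were then farther from 0, and the other 5 were nearer to it. On the unscaled signal, which shifts every probe by the same amount, only the 10 brightest had a median below 0, at -0.15, and the other 6 bands had medians from 0.29 to 0.76. The scaling thus sets the rank at which the sign changes.

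**Figure D3:**
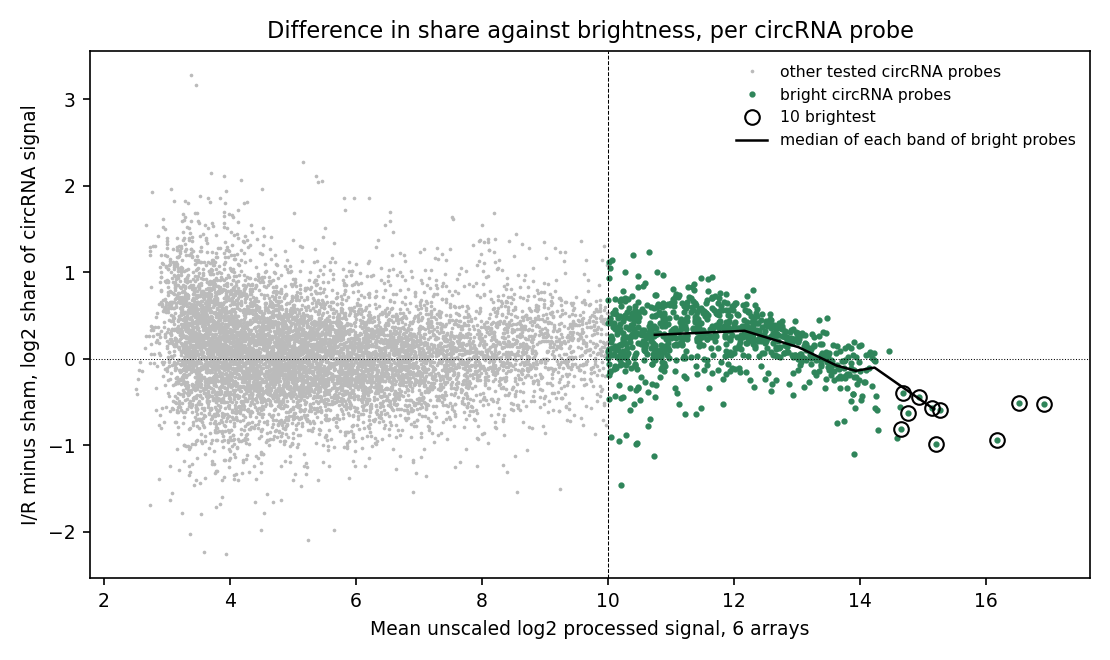
Difference in log2 share, I/R minus sham, against the mean unscaled log2 signal over the 6 arrays; green points are bright probes, grey points other tested circRNA probes, open circles the 10 brightest, the dashed line is the limit of 10 and the solid line joins the medians of the 7 bands. The medians rise from -0.58 for the 10 brightest probes to 0.32 for ranks 201 to 400, and single probes scatter widely at the dim end.

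In percentage points, the concentration in sham rested on few probes and the gain after I/R on many. Loss and gain stand here for the difference of the mean shares, whatever the test of the single probe gave. Of the 823 probes, 202 had a lower mean share in percent after I/R and together lost 8.99 points, and 621 had a higher one and together gained 8.27 points. The 10 brightest probes made up 48.0% of the loss. Of the 10 probes with the largest losses, 8 were among the 10 brightest, and 10 probes sufficed for 50% of the loss. A loss above 0.1 points was seen for 22 probes, of which 19 were among the 50 brightest. No gain was of that size, and 1 gain was above 0.05 points, that of ASCRP4009692. The median gain was 0.0111 points. Points scale with a probe's share, and no probe can lose more than it holds. That large losses lay among the brightest is thus partly set by this measure. Among the 25, 50 and 100 brightest probes, 20, 38 and 73 had the lower mean share in percent after I/R.

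The number of probes that carried the loss depended on sham 3. Without it 310 probes had the lower mean share and 513 the higher one, the 10 brightest made up 38.0% of the loss, and 16 probes were needed for 50% of it. Within scan set 1 it took 19 probes and within scan set 2 it took 9. The 10 brightest all had the lower mean share in both scan sets and with each of the 6 arrays left out in turn. When the 10 brightest were chosen by the sham arrays alone, 9 of them were the same probes and all 10 were lower after I/R. When they were chosen by the I/R arrays alone, again 9 were the same and 9 of the 10 were lower. A choice by a single group favours probes that are high in it, so the count from the sham arrays is no independent support.

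Below the 10 brightest, the next probes did not all move alike. ASCRP4006712, the 11th, held 0.532%, 0.479% and 0.697% on the sham arrays and 0.373%, 0.340% and 0.440% on the I/R arrays, with no overlap. ASCRP4009159, the 12th, was among the 10 brightest on every sham array, at ranks 9, 10 and 9, and at ranks 36, 17 and 15 on the I/R arrays. Its share was 0.548%, 0.511% and 0.838% in sham and 0.293%, 0.316% and 0.374% in I/R, a log2 difference of -0.92 (limma, adjusted p = 0.576). ASCRP4000881, the 13th, held 0.451%, 0.401% and 0.352% in sham and 0.467%, 0.417% and 0.394% in I/R, a difference of 0.09 with overlapping groups. With a nearly level share it stood at ranks 15, 14 and 29 in sham and 7, 6 and 12 in I/R, while several probes above it held less.

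Ranks were otherwise alike between arrays. Of the 16 probes that were among the 10 brightest on at least 1 array, 6 were so on all 6, and of the 124 among the 100 brightest on at least 1 array, 74 were so on all 6. Spearman's rho between arrays across the 823 probes, which are not independent replicates, ran from 0.853 for sham 3 with I/R 6 to 0.957 for sham 1 with I/R 6. Sham 1 with sham 3, a pair within a group, gave 0.854. The lowest and the highest rho were thus both found across the groups and did not part sham from I/R. The 2 arrays of scan set 1 were among the most alike.

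Across all 9492 circRNA probes that were well above background on at least 3 arrays, limma called no difference in log2 share at an adjusted p of 0.05, which is 0.0% called, and none of the 825 bright probes, all of which were tested. The smallest adjusted p was 0.171 over all probes and 0.546 over the bright ones. At an unadjusted p under 0.05, 19 bright probes were higher and 19 lower after I/R, together 4.61% of them, beside 8.11% of all tested probes (4.81% higher and 3.3% lower). The difference between these percentages was not tested. Of the 19 lower ones, 5 were among the 10 brightest. With each array scaled by its 75th percentile instead, 19 bright probes were higher and 17 lower at that level, together 36, beside 8.48% of all tested probes (5.51% higher and 2.97% lower). That count of 36 was 14 without I/R 7, 15 without I/R 6, 74 without sham 1 and 188 with no scaling, beside 3.80%, 4.22%, 12.5% and 20.7% of all tested probes in the same settings.

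By mean log2 share, 638 of 823 bright probes (77.5%) were higher after I/R, beside 58.6% of all tested probes. Without sham 3 it was 505 of 823 (61.4%), beside 63.3%. Every I/R array lay above every sham array for 77 bright probes (9.36%), beside 8.63% of all tested, and below for 41 (4.98%), beside 6.44%. Both shares are near those of all probes. Of these 41, 7 were among the 10 brightest and 25 among the 100 brightest. The median log2 difference of the bright probes was 0.23 and that of all tested probes 0.09. Without sham 3 these medians were 0.06 and 0.13. Over all 6 arrays 90% of the bright probes lay between -0.43 and 0.70. The median SE of 0.28 was of the size of most differences. A difference above 1 in size was seen for 9 bright probes (1.09%), beside 5.08% of all tested.

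In both directions the smallest p-value among the bright probes belonged to a probe past rank 600. ASCRP4013150, the 621st in brightness, held 0.0445%, 0.0406% and 0.0518% of the signal on the sham arrays and 0.0182%, 0.0177% and 0.0278% on the I/R arrays, a log2 difference of -1.13 (SE 0.27; limma, unadjusted p = 0.00413, adjusted p = 0.546). ASCRP4007838, the 761st, was the probe with the largest log2 difference of all the bright ones, -1.46, from 0.0262%, 0.0356% and 0.0477% in sham to 0.00929%, 0.0118% and 0.0197% in I/R. On the higher side, ASCRP4005209, the 641st, held 0.0159%, 0.0114% and 0.0378% in sham and 0.0494%, 0.0422% and 0.0431% after I/R, which differ by 1.23 in log2 share (SE 0.44; limma, unadjusted p = 0.0268, adjusted p = 0.600). In all 3 the groups did not overlap, and none passed after adjustment.

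The probe with the largest gain in points, ASCRP4009692, was the 92nd in brightness. It held 0.148%, 0.144% and 0.258% of the signal on the sham arrays and 0.248%, 0.228% and 0.257% on the I/R arrays. Sham 3 was as high as the I/R arrays, so the groups overlapped and the gain came from sham 1 and sham 2.

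For the bright probes the median SD of the log2 share within a group was 0.31, beside 0.40 for all tested probes. It was 0.35 within sham and 0.23 within I/R, and 647 bright probes (78.6%) had the larger SD in sham, beside 69.4% of all tested. The median ratio of the highest to the lowest share over the 6 arrays was 1.88, beside 2.24 for all tested, and it was above 4-fold for 18 bright probes (2.19%), beside 15.8%. Of these 18, none was among the 100 brightest, 11 had their highest share on sham 3 and 10 their lowest on sham 1, and in 2 the groups did not overlap.

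ASCRP4001750 was such a probe and was singled out after its values were seen. Its share was 0.0395%, 0.106% and 1.03% on the sham arrays and 0.0935%, 0.255% and 0.454% on the I/R arrays, a 26.1-fold range. It was lowest on the 2 arrays of scan set 1 and highest on sham 3, which moved it from rank 523 on sham 1 to rank 6 on sham 3 and rank 10 on I/R 9. It was the probe with the largest gain, 0.195 points, when sham 3 was left out. ASCRP4009892 varied more still, from 0.00477% to 0.147%, a 30.9-fold range. ASCRP4007241 ran from 0.0175% to 0.272%. These 3 probes were all lowest on sham 1 and highest on sham 3. In contrast, ASCRP4007240, which has the preceding number, held 0.366%, 0.332% and 0.251% in sham and 0.388%, 0.287% and 0.300% in I/R. ASCRP4005002, ASCRP4004297, ASCRP4002387 and ASCRP4011950 were low on sham 1 and sham 2 and highest on sham 3, with ranges of 9.18, 7.24, 6.54 and 7.46-fold.

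**Figure D4:**
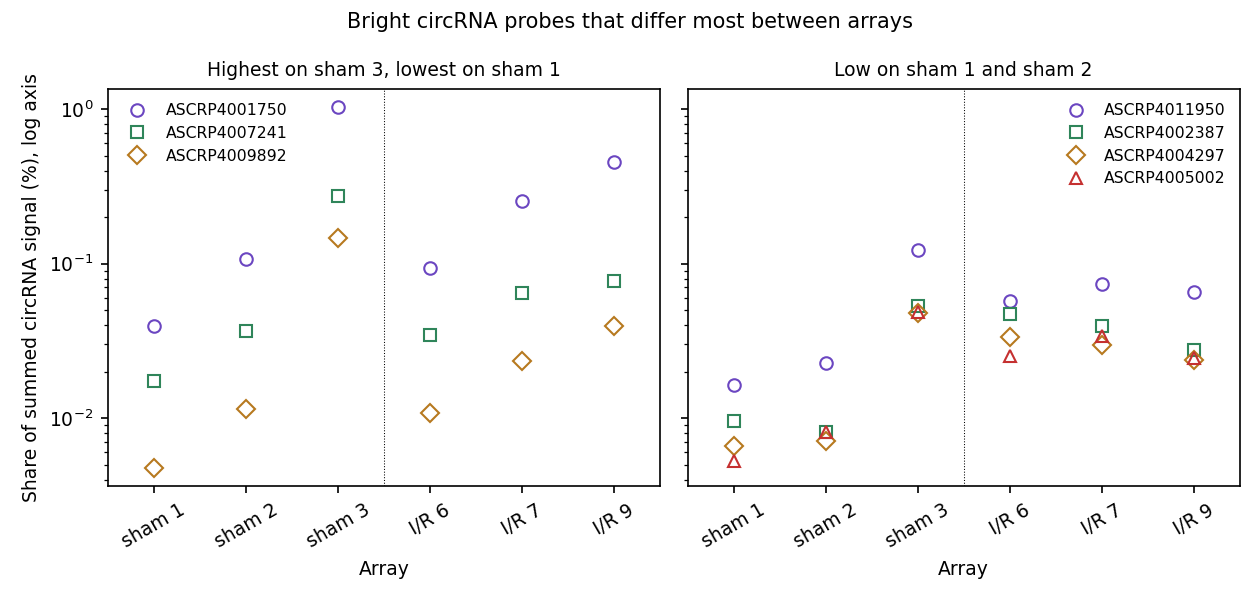
Share of the summed circRNA signal (percent, log axis) on each of the 6 arrays for bright probes whose share varied most, chosen after their values were seen; each symbol is 1 probe, and the dotted line parts sham at the left from I/R at the right. The left panel holds 3 probes that were lowest on sham 1 and highest on sham 3, such as ASCRP4001750 with 0.0395% and 1.03%, and the right panel 4 probes that were low on sham 1 and sham 2.

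Bright probes lay more often next to each other in the numbering of the array than circRNA probes at large. For 94 of the 825 (11.4%) the next number was also a bright probe, beside 5.80% of all circRNA probes being bright. The differences of such neighbours were about as far apart as those of any pair of bright probes, with a median gap of 0.25 beside 0.30 on the log2 scale. ASCRP4006710, the brightest, and ASCRP4006712, the 11th, are 2 numbers apart. Whether neighbours in number share a host gene is not given in the files. On the array surface, 49.2% of the bright probes lay in the upper 96 of 192 rows, beside 50.1% of all circRNA probes.

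The authors' deposited table of log2 values could not be used to compare the concentration between the groups. There the 3 brightest probes have one and the same value on all 6 arrays, 16.9 for ASCRP4006710, 16.5 for ASCRP4012684 and 16.1 for ASCRP4006342, and no other probe does. Quantile normalization gives the probe of a given rank the same value on every array, so probes that keep their rank on all arrays show no difference under it. There, of the 10 brightest probes, 4 were lower after I/R, 3 higher and 3 equal, with a median difference of 0, beside -0.58 in log2 share. The 10 probes' part of the summed deposited values on the linear scale was 8.89% in sham and 8.68% in I/R.

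**Figure D5:**
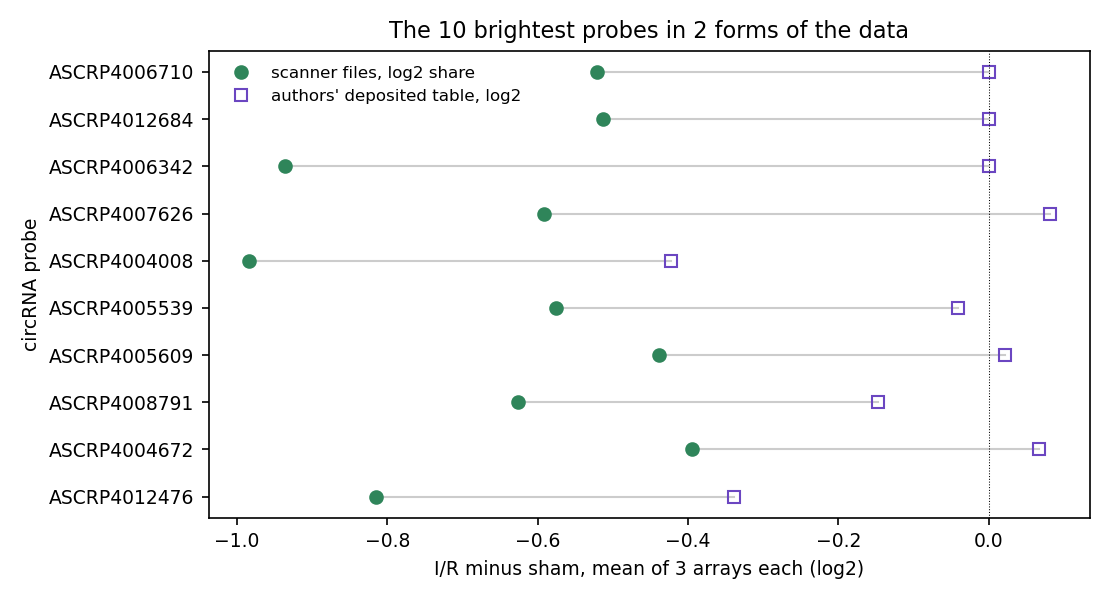
Difference I/R minus sham of the 10 brightest probes in log2 share from the scanner files (filled circles) and in the authors' deposited log2 table (open squares), each as the mean of 3 arrays against 3. The scanner differences run from -0.98 to -0.39, while the 3 brightest probes stand at 0 in the deposited table.

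The limit of 10 parted probes of nearly equal brightness. The 2 probes just inside it, ASCRP4003763 and ASCRP4012828, had mean log2 signals of 10.001 and 10.002, and the 2 just outside, ASCRP4000645 and ASCRP4005869, had 9.999 and 9.988.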

How the data were processed

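Total RNA of mouse small intestine was digested with RNase R, labelled with Cy3 by random priming and hybridised to 1-colour arrays, per the labels' protocols. Spots of an array designed on mm9 were quantified with Agilent Feature Extraction 11.0.1.1, per the file headers. The deposited processed intensity has its background subtracted and was not normalized between arrays. The authors also deposited a table with log2 values of 9821 probes, whose background correction and filter are not given in the sources used here. The submitters' processing notes also name limma.

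The 536 control spots of 15712 were left out. A total of 18 circRNA probes with a spot marked as an outlier by the scanner software, 2 of them bright, were left out of sums and ranks, which used 14218 circRNA probes and 823 bright ones. In the tests only the marked value was missing. Each share is a percent of the summed circRNA intensity. Log2 shares, and log2 intensity minus each array's 75th percentile, were fitted for probes well above background on at least 3 arrays with lmFit and eBayes of limma 3.58.1 in R 4.3.3 (two-sided, adjusted over 9492 probes by Benjamini-Hochberg), after a check on simulated data. With the 75th percentile scaling 0.0% of probes passed as well (smallest adjusted p = 0.143). The number of arrays limits the precision.

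The bright probes and all lists were chosen with earlier results of these data known. Named probes are the 10 brightest, those among the 10 brightest of any array, those with the largest changes of share or the smallest p in each direction, and those beside the limit, of which few are printed because probes carry no gene name. Host gene lists were not run for the same reason. Alternatives covered scaling, background, filter, value table, variance model, scan set, limit and each array left out.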

Additional observations from a re-analysis of the deposited data

Results flagged for a closer look

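Some probes outside the bright ones gave a signal on a single array that no other array shared. Of the spots marked as outliers, that of ASCRP4000716 was the highest. ASCRP4000716 had a processed signal of 104288 on I/R 7, which would have been rank 2 there and 1.44% of the circRNA signal, while its signal on the other 5 arrays ran from 10 to 59.6. The scanner software marked the spot as an outlier, so it stood outside every sum and rank. The median pixel signal of the spot was 6813, beside at most 121 on the other arrays.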

How the results depend on the processing

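Limma called no circRNA probe under any of 19 alternatives for the 75th percentile scaling or 7 for the share. For the 75th percentile scaling the smallest adjusted p of limma ran from 0.061 without sham 3 to 0.972 without I/R 7. For the share it was 0.067 and 0.999 in the same settings. The median difference of the bright probes, 0.29 on the 75th percentile scale, was 0.66 with no scaling and 0.02 to 0.44 with 1 array left out (0.02 without sham 3). The share of all bright probes, -0.718 points, reversed to 3.46 with normexp background correction (offset 50) and to 2.57 with the median pixel signal unsubtracted, and ran from -1.71 to 0.408 with 1 array left out. The 10 brightest probes differed by -4.32 points, by -1.62 in the closest pair of arrays, and by -5.26 to -2.68 with 1 array left out. The 3 brightest probes' part of that difference, 55.5%, stayed between 54.2% and 56.4% with 1 array left out. That part was close to what these 3 held of the 10 probes' signal.

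Single probes were compared with their difference in log2 share. Settings with another scaling or the deposited table give log2 signal instead of log2 share. ASCRP4007626 reversed to 0.14 with quantile normalization, 0.18 with normexp and quantile normalization and 0.081 in the authors' deposited table. In the same settings ASCRP4005609 reversed to 0.13, 0.21 and 0.022, and ASCRP4004672 to 0.11, 0.17 and 0.067. With no scaling ASCRP4004672 reversed to 0.039. ASCRP4005539 reversed to 0.033 with quantile normalization. ASCRP4000881 reversed to -0.043 when scaled over the probes detected on every array and to -0.0024 without sham 3. ASCRP4001750 ran from -0.58 without sham 1 to 1.77 without sham 3, and reversed to -0.076 without I/R 9 and to -0.124 points as a share in percent. Bright probes with an unadjusted p under 0.05 on the 75th percentile scale numbered 36 (4.36%, beside 8.48% of all tested), 62 (7.52%, beside 12.4%) with scan set as a block and 188 (22.8%, beside 20.7%) with no scaling. For the reversals of the quantile settings, ranks rather than signals are compared by construction. No scaling, and scaling over the probes detected on every array, shift the differences of all probes by the same amount. The reversals of ASCRP4004672 and ASCRP4000881 in those settings follow from that shift. The cause of the others was not tested.

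No paired analysis was possible because the sham arrays are numbered 1, 2 and 3 and the I/R arrays 6, 7 and 9, so the groups share no number. The median pixel signal stood in for the planned mean pixel signal, which was not used here. All alternatives for the share of the 10 brightest probes, the closest pair of arrays, the scan set as a block for shares and the counts in log2 share without sham 3 were chosen after seeing the data.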

Other observations

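Spots of the same kind as the one on I/R 7 stood on sham 1. That array had more of the 18 marked spots than any other. ASCRP4013278 had a marked spot with a processed signal of 89658 there, which would have been rank 2, beside 8.22 to 16.7 on the other arrays, and its median pixel signal was 474. ASCRP4000641, ASCRP4000693 and ASCRP4010625 had marked spots on sham 1 with signals of 9100, 8182 and 7264. Their highest signals on the other arrays were 19.7, 23.7 and 5.48. With all marked spots kept in sums and ranks the 10 brightest probes differed by -4.24 points. Among the bright probes, ASCRP4011284 had a marked spot on I/R 9 and unmarked signals from 463 on sham 1 to 18208 on sham 3.

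The array with the most bright probes at their highest log2 share was I/R 6, with 287 of 823, and the one with the fewest was I/R 9, with 47. I/R 9 also held the fewest at their lowest share, 14, so it was at an extreme for the fewest bright probes.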
